A study of Danio rerio with 42 samples.

Results

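The genes described here are the light-sensing genes of the zebrafish retina: rho, opn1sw1, opn1sw2, opn1mw1, opn1lw1, opn1lw2, gnat1, gnat2, pde6c and arr3a. They were taken by symbol from the larval count table, and all 10 were found among its 25935 genes. All 10 also passed the filter on low counts, which left 19657 genes for testing. The samples were pools of 15 whole AB strain larvae, siblings of mixed sizes, collected and homogenized at 13 days post fertilization (dpf). Larvae had been kept in 0% EtOH (control) or 1% EtOH (embryonic alcohol exposure, EAE) from 12 hours post fertilization (hpf) to 5 dpf. From 6 dpf all were fed hatched artemia, alone as the normal diet (ND) or with added whole egg powder as the high-fat, high-cholesterol (HFHC) diet. Each of the 4 combinations of EtOH and diet was sampled 3 times, so that p-values measure the spread between pools. Diets were given by tank, and neither the paper nor the sample labels say whether the 3 pools of a group came from separate tanks. If they did not, tank and group cannot be told apart. The series holds 42 samples in all, and its other 30 are adult livers. They form 6 groups of 5, from fish kept in 0%, 0.5% or 1% EtOH over the same embryonic period. At each EtOH level the fish were given an adult ND or an adult HFHC diet, begun at late juvenile stages. Livers were taken from adults after several weeks on these diets, when according to the paper BMI no longer differed between EtOH levels.

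Photoreceptors detect light with opsins, receptors that carry a vitamin A derived chromophore in the outer segment of the cell. An activated opsin switches on the G protein transducin, transducin switches on a cGMP phosphodiesterase, and the fall in cGMP closes cation channels. Arrestin then binds the opsin and ends the response. Rods serve dim light and cones serve daylight and color, and each type has its own version of nearly every protein in this chain. Zebrafish have rods and UV, blue, green and red cones, and young larvae see mainly with cones while rods mature later.

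Among the members, rho encodes the rod opsin and gnat1 the α subunit of rod transducin. UV cones use the opsin of opn1sw1, blue cones that of opn1sw2, green cones those of the opn1mw genes and red cones those of opn1lw1 and opn1lw2. The α subunit of cone transducin is encoded by gnat2, the catalytic subunit of the cone phosphodiesterase by pde6c, and a cone arrestin by arr3a. On genome build GRCz10, rho (ENSDARG00000002193) lies at chr8:53668767-53670321 and opn1sw1 (ENSDARG00000045677) at chr4:13578816-13581499. Blue and red opsin genes are neighbors on chromosome 11, with opn1sw2 (ENSDARG00000017274) at chr11:25222081-25237787, opn1lw1 (ENSDARG00000044862) at chr11:25240027-25242421 and opn1lw2 (ENSDARG00000044861) at chr11:25243430-25245590. The green opsin gene opn1mw1 (ENSDARG00000097008) lies at chr6:41184333-41191928. Because the opn1lw genes, and likewise the opn1mw genes, are tandem copies with similar sequence, the division of reads among the copies is uncertain. The remaining members are gnat1 (ENSDARG00000044199) at chr6:42921397-42932766, gnat2 (ENSDARG00000042529) at chr8:25206451-25228145, pde6c (ENSDARG00000100397) at chr12:5094288-5119142 and arr3a (ENSDARG00000056511) at chr10:26838500-26849684.

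Read totals ranged from 18582927 to 39115243 per sample. The 10 members together took 0.179% to 0.285% of the counts, from 33240 to 87071 reads per sample, so counting error of their sum was small beside the spread between pools. For opn1lw1 alone, with 65 to 264 reads per pool, counting error weighed more. In TPM, transcripts per 1000000 corrected for gene length, rho had the highest level of the members (mean 1008 over the 12 samples), ranking 151 of 25935 genes. It was followed by opn1sw1 (428 TPM), arr3a (295 TPM), gnat2 (167 TPM), opn1mw1 (166 TPM), opn1sw2 (165 TPM) and opn1lw2 (148 TPM). The phosphodiesterase gene pde6c (85.8 TPM) and gnat1 (85.0 TPM) were lower, and opn1lw1 was the lowest member, at 6.68 TPM. Of the green opsin genes that are no member, opn1mw2 reached 22.9 TPM and opn1mw3 1.01 TPM, and opn1mw4 had 2 counts in 1 sample, 1 count in another and none in the rest.

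The levels below are counts per 1000000 (CPM), scaled between libraries by the TMM method and not corrected for gene length, so they compare samples and not genes. The gene-wise values by sample are plotted first.

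**Figure D1:**
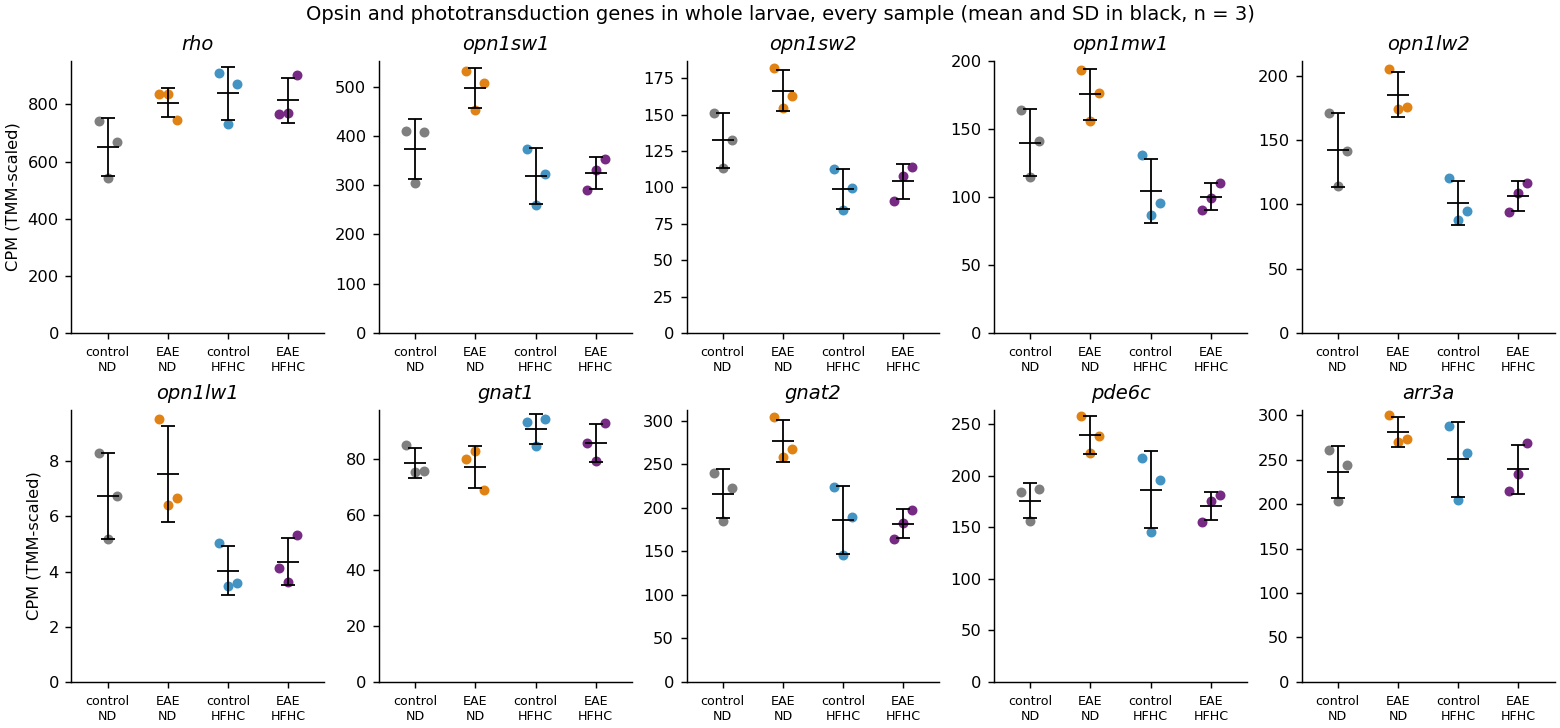
Levels of the 10 members in every larval sample, in TMM-scaled CPM on axes that start at 0. Points are pools of 15 larvae, and black marks give the mean and SD of 3 pools per group. The 3 HFHC pools of EAE larvae lie below the 3 EAE ND pools for the cone opsins, gnat2, pde6c and arr3a, but not for rho or gnat1.

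The EAE ND group had the highest mean of the 4 groups for 8 of 10 members, the exceptions being rho and gnat1, whose highest mean was in control HFHC larvae. For 5 of these 8 (opn1sw1, opn1sw2, opn1lw2, gnat2 and pde6c) every EAE ND pool lay above every pool of the next group. Other neighbors in the order of the 4 means overlapped for every member, apart from EAE ND over control ND for rho. How many of all genes had EAE ND highest and apart from the next group was not computed. EAE ND pools lay entirely above control ND pools for 10.9% of all genes. In control larvae the pools numbered 2 had low values of all cone members: control ND replicate 2 was the lowest of its group for the 10 members, and control HFHC replicate 2 was the lowest of its group for each as well. Because RNA came from whole larvae, fewer photoreceptors, less RNA per photoreceptor and a smaller share of eye RNA in the body cannot be told apart. The paper reports that EAE larvae were still shorter than controls at the age sampled here. It also reports more visceral fat in EAE than in control larvae on HFHC diet at this age. The part of these body differences in the members' levels was not tested.

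Among the members, most cone genes passed the test as lower on HFHC diet in EAE larvae, and neither rod gene, rho or gnat1, passed it. In this comparison 7 of the 10 members passed the test and all 7 were lower on HFHC diet: opn1sw1, opn1sw2, opn1mw1, opn1lw1, opn1lw2, gnat2 and pde6c. Over all genes tested, 4.13% fell in the same comparison. All tests of single genes used the quasi-likelihood method of edgeR, and p-values were adjusted after Benjamini and Hochberg over the 19657 genes, with a threshold of 0.05. The median log2 fold change was -0.61 over the members and -0.0012 over all genes.

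For the UV opsin opn1sw1, the EAE ND pools had 532, 453 and 508 CPM and the EAE HFHC pools 291, 332 and 354 CPM. The groups did not overlap, and the log2 fold change was -0.61 ± 0.12 (SE, adjusted p = 0.00404, edgeR). The blue opsin opn1sw2 went from 182, 155 and 163 CPM to 90.8, 108 and 114 CPM, a log2 fold change of -0.68 ± 0.11 (adjusted p = 9.73e-04, edgeR). Blue opsin RNA was thus 0.625 times as abundant on HFHC diet in EAE larvae.

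Among the opsin members, opn1mw1, opn1lw1 and opn1lw2 had the lowest ratios in these larvae, whereas the ratio of the green copy opn1mw2, which is no member, was 0.760. Levels of opn1mw1 were 194, 156 and 177 CPM in EAE ND and 90.8, 99.4 and 111 CPM in EAE HFHC pools (log2 fold change -0.81 ± 0.14, adjusted p = 0.00130, edgeR). The red opsin gene opn1lw2 had 205, 174 and 176 CPM in EAE ND and 93.6, 109 and 117 CPM in EAE HFHC pools (-0.80 ± 0.13, adjusted p = 9.43e-04, edgeR). Both differences exceeded the spread between pools, and no value of the ND pools fell within the HFHC range. The neighboring copy opn1lw1 had only 78 to 106 reads per EAE HFHC pool and fell by 0.79 ± 0.20 on the log2 scale (adjusted p = 0.0186, edgeR). Its call was lost without EAE ND replicate 1 (adjusted p = 0.0913), EAE HFHC replicate 1 (0.0636) or EAE HFHC replicate 2 (0.0910).

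Downstream of the opsins, the cone transducin gene gnat2 had 304, 258 and 268 CPM in EAE ND and 165, 183 and 198 CPM in EAE HFHC pools. It fell by 0.61 ± 0.12 on the log2 scale (adjusted p = 0.00452, edgeR). The cone phosphodiesterase gene pde6c had 258, 222 and 239 CPM against 155, 176 and 181 CPM, a log2 fold change of -0.49 ± 0.12 (adjusted p = 0.0110, edgeR; 0.0567 without EAE HFHC replicate 1). The cone arrestin gene arr3a had 301, 270 and 273 CPM against 215, 234 and 268 CPM. These arr3a groups did not overlap, but the difference of -0.23 ± 0.11 on the log2 scale did not pass the test (adjusted p = 0.198, edgeR). In all, 8 members had EAE HFHC pools entirely below EAE ND pools, a pattern shown by 14.7% of all genes.

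The rod members gave other values. In EAE larvae rho had 836, 836 and 746 CPM on ND and 766, 772 and 904 CPM on HFHC diet, with overlapping groups and a log2 fold change of 0.01 ± 0.10 (adjusted p = 0.955, edgeR). Rod transducin, gnat1, had 80.2, 82.9 and 68.7 CPM on ND and 85.7, 79.1 and 92.8 CPM on HFHC diet (0.15 ± 0.08, adjusted p = 0.243, edgeR). Neither gene passed the test in this comparison.

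In control larvae the HFHC diet was accompanied by a higher rod opsin and lower blue, green and red opsins. Of the 10 members, 1 rose (rho) and 4 fell (opn1sw2, opn1mw1, opn1lw1 and opn1lw2), where 9.58% of all genes tested rose and 7.55% fell. The rod opsin gene rho had 742, 543 and 667 CPM in control ND and 910, 732 and 873 CPM in control HFHC pools. One HFHC pool, at 732 CPM, lay below the highest ND pool, and the log2 fold change was 0.37 ± 0.10 (adjusted p = 0.0251, edgeR).

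For opn1sw2 the control ND pools had 151, 113 and 133 CPM and the control HFHC pools 112, 84.8 and 99.4 CPM (-0.42 ± 0.11, adjusted p = 0.0182, edgeR). The HFHC maximum and the ND minimum of this gene were close to each other without overlap. For opn1lw2 the values were 171, 114 and 141 CPM against 120, 88.0 and 94.7 CPM (-0.49 ± 0.13, adjusted p = 0.0183, edgeR), with overlap. The values of opn1mw1 were 164, 115 and 142 CPM against 131, 86.6 and 95.4 CPM, also with overlap (-0.42 ± 0.14, adjusted p = 0.0465, edgeR). The low-level copy opn1lw1 fell by 0.74 ± 0.20 on the log2 scale (adjusted p = 0.0200, edgeR), from 8.28, 5.18 and 6.75 CPM to 5.04, 3.47 and 3.58 CPM. Groups were fully apart, with lower HFHC values, for opn1sw2 and opn1lw1 among the members and for 17.7% of all genes.

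The other 5 members did not pass the test in control larvae. Their log2 fold changes were -0.23 ± 0.12 for opn1sw1 (adjusted p = 0.211, edgeR), 0.21 ± 0.08 for gnat1 (adjusted p = 0.0810) and -0.21 ± 0.12 for gnat2 (adjusted p = 0.250). For pde6c the value was 0.08 ± 0.12 (adjusted p = 0.656, edgeR) and for arr3a 0.08 ± 0.11 (adjusted p = 0.644). The green opsin copy opn1mw2, which is no member, fell in control larvae (-0.40 ± 0.12, adjusted p = 0.0320, edgeR) and in EAE larvae (-0.40 ± 0.12, adjusted p = 0.0438), and opn1mw3 passed in neither. Calls in control larvae depended on single pools. With 1 control ND pool left out, 1 (replicate 1), 4 (replicate 2) or 2 (replicate 3) members were called, and with 1 control HFHC pool left out, 4, 1 or 0 in the same order. Limma on log2(TPM + 1) called none of the 5, with adjusted p between 0.0544 and 0.136.

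**Figure D2:**
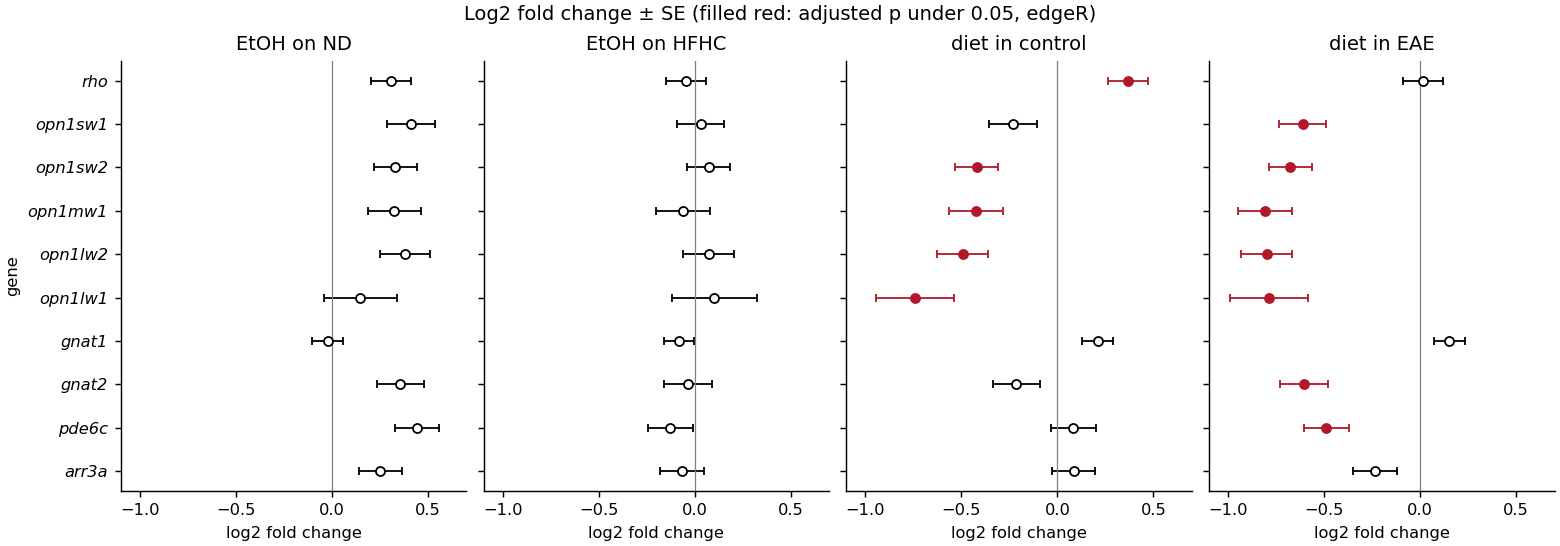
Log2 fold changes of the 10 members with their SE in the 4 comparisons of a pair of groups; filled red points passed the test at an adjusted p of 0.05. The 7 red points for diet in EAE larvae lie between -0.81 and -0.49, and no member passed for EtOH on either diet.

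Embryonic EtOH on ND was accompanied by values above control ND for 9 of 10 members, but none passed the test, and opn1lw1 had an estimate of -0.05 without EAE ND replicate 1. The median log2 fold change of the members was 0.33, against -0.0026 over all genes, of which 0.85% rose. At an unadjusted p under 0.05, 8 members were higher, where 8.91% of all genes were. EAE ND pools lay entirely above control ND pools for 7 members (rho, opn1sw1, opn1sw2, opn1lw2, gnat2, pde6c and arr3a), as they did for 10.9% of all genes.

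The lowest p belonged to pde6c, with 184, 156 and 187 CPM in control ND and 258, 222 and 239 CPM in EAE ND pools. Its log2 fold change was 0.44 ± 0.12 (adjusted p = 0.0656, edgeR), and DESeq2 called it (adjusted p = 0.0118). The UV opsin opn1sw1 had 409, 304 and 408 CPM in control ND and 532, 453 and 508 CPM in EAE ND pools (0.41 ± 0.12, adjusted p = 0.102, edgeR). For rho the difference was 0.31 ± 0.10 (adjusted p = 0.147, edgeR) and for gnat1 -0.02 ± 0.08 (adjusted p = 0.930). The remaining members had values between 0.15 and 0.38 on the log2 scale.

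On HFHC diet, control and EAE larvae had overlapping values of all 10 members. Log2 fold changes ran from -0.13 for pde6c (SE 0.12, adjusted p = 0.845, edgeR) to 0.10 for opn1lw1 (SE 0.22, adjusted p = 0.945), with a median of -0.04. None passed the edgeR test, none had an unadjusted p under 0.05 and DESeq2 called none, while 0.234% of all genes were called and 8.31% had an unadjusted p under 0.05.

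The interaction compares the EtOH effect on HFHC diet with that on ND, which is also the diet effect in EAE larvae minus that in control larvae. All 10 members had an estimate below 0, as had 9340 of the 19657 genes tested. Estimates ran from -0.05 for opn1lw1 to -0.57 for pde6c, with a median of -0.34 against 0.01 over all genes. The estimate of opn1lw1 was above 0 in 4 of the fits that left out a pool. The pattern was not particular to the members. Of lists described below, all 15 bipolar, 18 of 19 neuronal and 18 of 20 lens genes were below 0 (medians -0.28, -0.36 and -0.28). No member passed the edgeR test, where 0.254% of all genes did. At an unadjusted p under 0.05, 4 members (rho, opn1sw1, gnat2 and pde6c) were lower, as were 7.93% of all genes. So were 5 of 15 bipolar, 13 of 19 neuronal and 14 of 20 lens genes. For pde6c the estimate was -0.57 ± 0.16 (adjusted p = 0.127, edgeR; 0.0395 by DESeq2; 0.0134 by edgeR without control HFHC replicate 2). The larger count of falls in EAE than in control larvae is therefore not shown to be a difference between them for any member in edgeR.

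To compare opsins independently of how much eye RNA each pool held, the share of each opsin class was computed within a sample, as a percentage of the summed TPM of rho, opn1sw1, opn1sw2, the 4 opn1mw genes and both opn1lw genes. On ND, rho made up 46.1% of opsin TPM on average (range 43.8% to 48.6% over 6 pools), and on HFHC diet 58.3% (55.9% to 60.2%). All 6 HFHC pools lay above all 6 ND pools. The difference between the diet means was 12.2 percentage points, with an exact two-sided permutation p of 0.005 (diet permuted within EtOH level, 400 arrangements, the smallest p they can give; 0.01 after Benjamini-Hochberg adjustment over 10 tests).

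**Figure D3:**
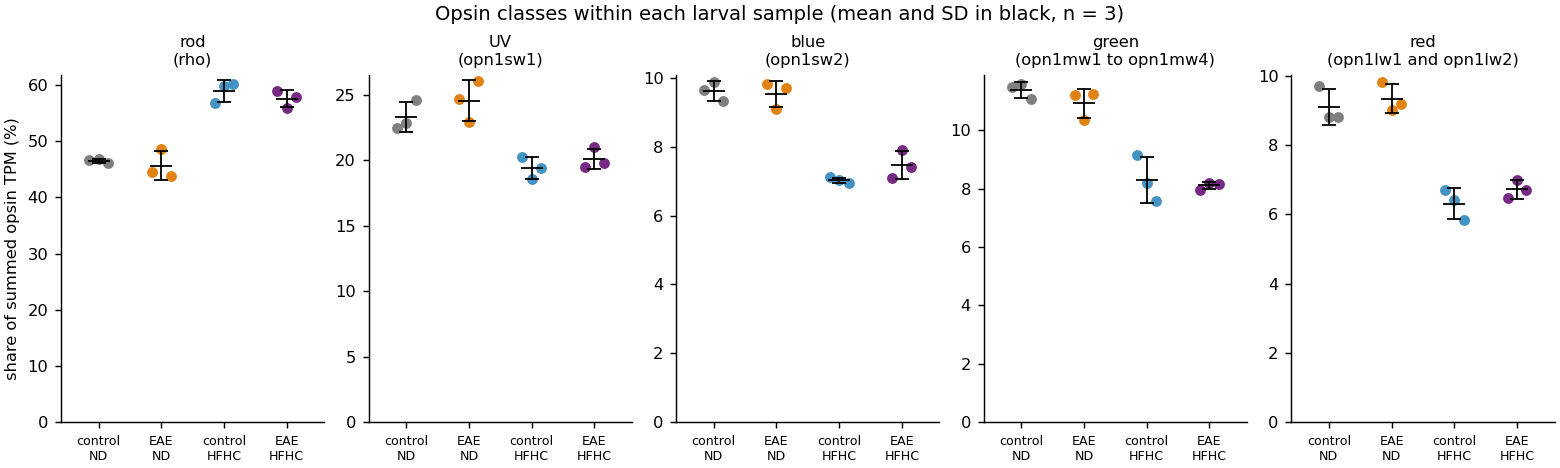
Share of each of 5 opsin classes in the summed opsin TPM of a sample, in percent, on axes that start at 0. Points are pools, and black marks give the mean and SD of 3 pools. The 6 HFHC pools have rho shares of 55.9% to 60.2% and the 6 ND pools 43.8% to 48.6%, and each cone class lies lower on HFHC diet without overlap.

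Every cone class had a lower share on HFHC diet, and none of the ranges overlapped. UV opsin made up 23.9% on ND (22.5% to 26.0%) and 19.8% on HFHC diet (18.6% to 21.0%). Blue opsin went from 9.58% (9.10% to 9.89%) to 7.25% (6.95% to 7.91%). Green opsins took 11.2% on ND (10.4% to 11.6%) and 8.21% on HFHC diet (7.59% to 9.16%), and red opsins 9.22% (8.80% to 9.81%) and 6.52% (5.82% to 6.99%). All 4 cone classes also had an exact permutation p of 0.005 (adjusted p = 0.01). Shares of a sample add up to the whole, so the 5 tests are not independent of each other.

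The differences between control and EAE larvae were small by the same measure. The rho share was 52.8% in control and 51.6% in EAE larvae (exact permutation p = 0.265, adjusted p = 0.322), and the UV share 21.4% and 22.3% (exact permutation p = 0.15, adjusted p = 0.25). No class passed the test for EtOH, and the lowest unadjusted p was that of the UV class. All 5 classes passed the test for diet in each of 12 repeats that left out 1 pool and also when counts replaced TPM.

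Shares within the cone opsins alone were described in the same way. The UV class made up 42.1% to 46.4% of cone opsin TPM in the ND pools, counting both EtOH levels, and 46.2% to 48.8% in the HFHC pools, with a small overlap. Red opsins had 16.4% to 18.2% in the ND pools and 14.6% to 16.0% in the HFHC pools, without overlap. Green opsins had 20.0% to 21.8% on ND and 18.6% to 21.2% on HFHC diet. Blue opsin ranges overlapped between diets in control larvae, at 17.3% to 18.6% on ND and 16.4% to 17.5% on HFHC diet. In EAE larvae they overlapped as well, at 17.3% to 17.7% on ND and 17.3% to 17.9% on HFHC diet.

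The cone opsins were lower on HFHC diet also relative to the other cone members. The ratio of their summed TPM to that of gnat2, pde6c and arr3a, chosen after the values were seen and given as a description, was 1.77 to 1.91 in control ND and 1.86 to 1.96 in EAE ND pools. It was 1.39 to 1.53 in control HFHC and 1.54 to 1.59 in EAE HFHC pools. The ratio of rho to gnat1 TPM was 9.13 to 11.2 in control ND, 12.8 to 13.8 in EAE ND, 10.98 to 12.4 in control HFHC and 11.3 to 12.4 in EAE HFHC pools, so that it was highest in EAE ND larvae.

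Some other gene lists of the eye and nervous system were also highest in EAE ND pools, and others were not. Bipolar cells receive the photoreceptor signal, and the summed level of 15 bipolar cell markers, none at 0 in every sample, was 138 to 161 CPM in control ND, 173 to 191 CPM in EAE ND, 139 to 179 CPM in control HFHC and 149 to 167 CPM in EAE HFHC pools. EAE ND pools were thus the high ones for this list too, without overlap with control ND or EAE HFHC. The same held for 19 horizontal, amacrine and ganglion cell markers (252 to 286, 318 to 333, 269 to 324 and 279 to 293 CPM in the same order of groups) and for 19 neuronal genes outside the list of any retinal cell (1456 to 1587, 1839 to 1952, 1453 to 1947 and 1563 to 1704 CPM). Of 23 lens genes the summed level was 3496 to 4096 CPM in control ND and 4050 to 4575 CPM in EAE ND pools, with overlap. The lens sum was 3636 to 4101 CPM in control HFHC pools, which also overlapped EAE ND, and 3372 to 3826 CPM in EAE HFHC pools. The sum of 9 Mueller glia genes differed by diet instead: 1704 to 1809, 1806 to 1895, 2050 to 2154 and 2024 to 2196 CPM in the same order of groups. As a set these genes did not shift: their median log2 fold change for diet was 0.0017 in control and 0.0079 in EAE larvae. In each, 5 were above 0 and 4 below. The 26 genes of the visual cycle and retinal pigment epithelium overlapped between control ND (525 to 564 CPM) and EAE ND pools (502 to 592 CPM). RNA came from whole larvae, and how much of each list was expressed outside the retina was not examined. The part of these tissues in the members' differences was not tested.

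For that reason each member was also set against the bipolar markers, as the ratio of its CPM to their summed CPM, a measure chosen after the values were seen. Whether these markers were expressed only in bipolar cells of the whole larvae was not examined, and their sum weights its highest genes most. In EAE larvae 7 members had HFHC ratios entirely below the ND ratios, the same 7 that passed the test, where 1.7% of all genes did. The opn1lw2 ratio was 0.976 to 1.07 in EAE ND and 0.629 to 0.721 in EAE HFHC pools. Ratios of rho and gnat1 were entirely higher on HFHC diet, as for 40.6% of all genes. In control larvae 6 members (the 5 cone opsin members and gnat2) had entirely lower ratios on HFHC diet, against 9.83% of all genes, and rho an entirely higher one, against 8.04%. The rho ratio was 3.94 to 4.60 in control ND and 5.10 to 5.39 in control HFHC pools.

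Measured in this way, the EtOH difference on ND was seen in fewer members. Only pde6c had EAE ND ratios entirely above control ND ratios, at 1.28 to 1.35 against 1.13 to 1.24, where 1.18% of all genes did. The gnat1 ratio was entirely lower, as were those of 50% of all genes, and the other 8 members overlapped.

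The further genes of the rod and cone chains were followed as lists. The rod list held 17 genes in the table, all tested. On HFHC diet 8 of them rose in control larvae and none fell, where 9.58% of all genes rose, with a median log2 fold change of 0.31 against 0.01 over all genes. They included grk1a, encoding rhodopsin kinase (0.41 ± 0.09, adjusted p = 0.00610, edgeR), pde6a, a rod phosphodiesterase subunit (0.34 ± 0.08, adjusted p = 0.0108), cngb1a, a rod channel subunit (0.89 ± 0.22, adjusted p = 0.0121), and slc24a1, a sodium/calcium-potassium exchanger of rods (0.52 ± 0.13, adjusted p = 0.0151). In EAE larvae none of the 17 passed in edgeR (at an unadjusted p under 0.05, 3 were higher and 1 lower), and their median was 0.13. The share of all genes at an unadjusted p was not computed for the diet comparisons. With EtOH on ND, cngb1a rose (0.96 ± 0.22, adjusted p = 0.0471, edgeR) and the median of the list was 0.14.

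The cone list had 21 genes in the table, all tested. In EAE larvae 6 fell on HFHC diet and none rose, with a median of -0.29, where 4.13% of all genes fell and 8.19% rose. Among them were gnb3b and gngt2b, encoding the β and γ subunits of cone transducin (-0.62 ± 0.11, adjusted p = 0.00175, and -0.65 ± 0.12, adjusted p = 0.00209, edgeR), and the cone opsin kinase gene grk7b (-0.82 ± 0.18, adjusted p = 0.00761). In control larvae 2 of the 21 rose and none fell, where 9.58% of all genes rose and 7.55% fell. At an unadjusted p under 0.05, 5 were higher and 4 lower, with no share of all genes computed to set beside them. Those that passed the test and rose were slc24a2, a sodium/calcium-potassium exchanger gene (0.40 ± 0.10, adjusted p = 0.0145, edgeR), and rgs9b, which speeds the shutoff of transducin (0.38 ± 0.11, adjusted p = 0.0296). The exchanger gene slc24a2 fell in EAE larvae (-0.45 ± 0.10, adjusted p = 0.00773, edgeR) and rose with EtOH on ND (0.68 ± 0.10, adjusted p = 0.00872). It was the 1 gene of both lists whose interaction passed the test (-0.85 ± 0.14, adjusted p = 0.0225, edgeR).

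**Figure D4:**
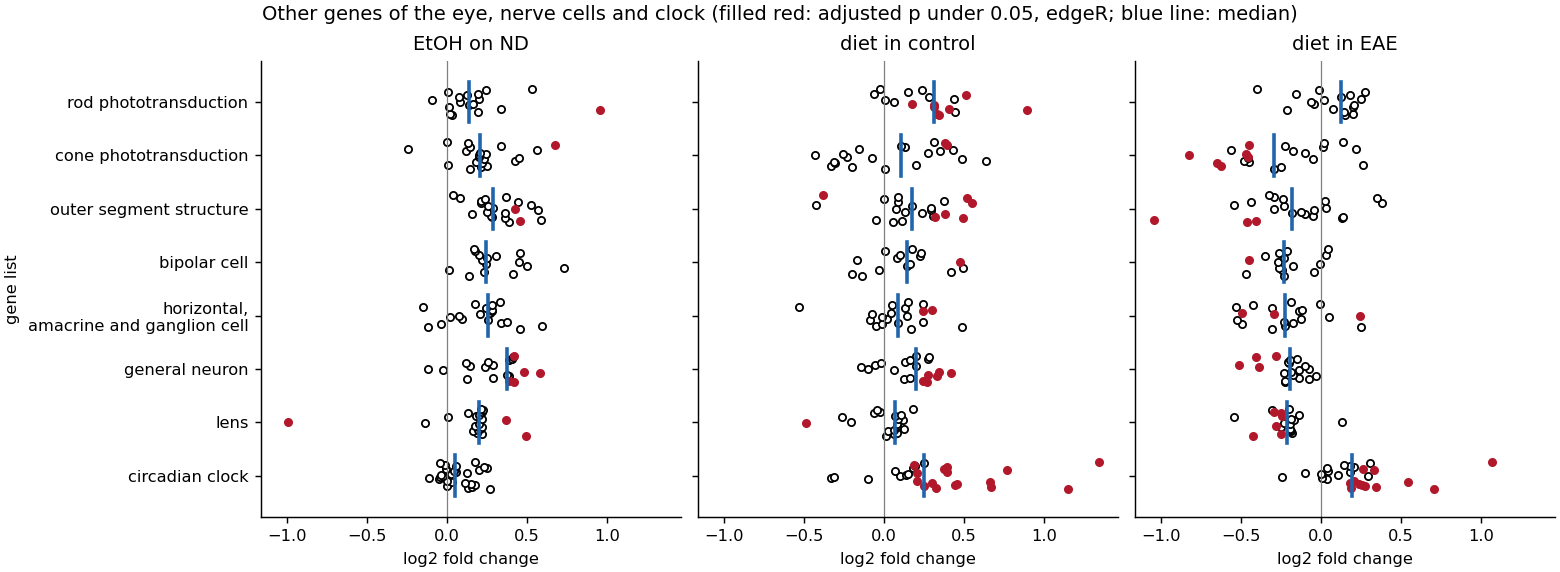
Log2 fold changes of single genes in 8 lists for EtOH on ND and for the HFHC diet in control and EAE larvae; red points passed the test at an adjusted p of 0.05 and blue lines are list medians. The rod list has a median of 0.31 for diet in control larvae, and the cone list one of -0.29 for diet in EAE larvae.

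A list for outer segment structure was followed too, which also held genes of the matrix around the photoreceptors and other photoreceptor genes. Of 21 tested, 5 rose and 1 fell on HFHC diet in control larvae (9.58% and 7.55% of all genes), and 3 fell in EAE larvae (4.13% of all genes): prph2a and prph2b, copies of the disc rim protein gene peripherin (-0.46 ± 0.11, adjusted p = 0.00933, and -0.41 ± 0.10, adjusted p = 0.0109, edgeR), and prph2l (-1.04 ± 0.31, adjusted p = 0.0350). In control larvae the risers included rom1a, another disc rim gene (0.50 ± 0.11, adjusted p = 0.00722, edgeR), and impg2b, a gene of the matrix around the photoreceptors (0.55 ± 0.12, adjusted p = 0.00678). With EtOH on ND, 2 of the 21 rose (0.85% of all genes), prph2b (0.46 ± 0.10, adjusted p = 0.0353, edgeR) and rs1a (0.43 ± 0.10, adjusted p = 0.0457).

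Of 14 transcription factors of photoreceptors, six7 and rx1 passed a test. With EtOH on ND 1 of the 14 rose (0.85% of all genes), and on HFHC diet 1 rose in control larvae (9.58%). In EAE larvae 1 rose and 1 fell on HFHC diet (8.19% and 4.13%). The counts for diet were thus near the shares of all genes. The cone factor six7, which zebrafish need for green opsin expression, was at 12.4 ± 2.23 CPM in control ND, 16.6 ± 0.79 CPM in EAE ND, 20.2 ± 3.94 CPM in control HFHC and 23.3 ± 1.83 CPM in EAE HFHC larvae (SD, n = 3). It rose on HFHC diet in control larvae (0.70 ± 0.13, adjusted p = 0.00210, edgeR) and in EAE larvae (0.49 ± 0.13, adjusted p = 0.0213), the diet on which opn1mw1 fell. The retinal homeobox gene rx1 rose with EtOH on ND (0.61 ± 0.11, adjusted p = 0.0181, edgeR) and fell on HFHC diet in EAE larvae (-0.55 ± 0.11, adjusted p = 0.00327).

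In the list of the visual cycle and retinal pigment epithelium, which regenerate the chromophore, 6 of 26 genes fell and 1 rose on HFHC diet in EAE larvae (4.13% and 8.19% of all genes), with a median of -0.16. The isomerase gene rpe65a (-0.46 ± 0.11, adjusted p = 0.0137, edgeR) and the retinol dehydrogenase gene rdh5 (-0.63 ± 0.14, adjusted p = 0.00947) fell, as did the melanin synthesis genes dct (-0.54 ± 0.08, adjusted p = 3.83e-04) and tyrp1b (-0.27 ± 0.06, adjusted p = 0.00789), which skin pigment cells of whole larvae also express. In control larvae 3 of the 26 rose and 3 fell, near the 9.58% and 7.55% of all genes. Both dct (-0.30 ± 0.08, adjusted p = 0.0165, edgeR) and tyrp1b (-0.29 ± 0.06, adjusted p = 0.00372) were among those that fell, and abca4a, a retinoid transporter gene of photoreceptors, rose (0.41 ± 0.10, adjusted p = 0.00921).

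For the HFHC diet in EAE larvae, where 4.13% of all genes fell and 8.19% rose, 1 of 15 bipolar genes fell (median -0.23), 2 of 19 horizontal, amacrine and ganglion cell genes fell and 1 rose (median -0.22), 6 of 20 lens genes fell (median -0.21) and 4 of 19 neuronal genes fell (median -0.19). With EtOH on ND, where 0.85% of all genes rose and 0.458% fell, 5 of 19 neuronal genes rose (median 0.38), among them sv2a, a synaptic vesicle gene (0.58 ± 0.10, adjusted p = 0.0161, edgeR). No bipolar gene passed in edgeR, and all 15 were above 0 (median 0.25). At an unadjusted p under 0.05, 7 of the 15 were higher, where 8.91% of all genes were. In the lens list 2 of 20 genes rose with EtOH on ND and 1 fell, with a median of 0.20. At an unadjusted p under 0.05, 14 of the 20 were higher, where 8.91% of all genes were, and 1 was lower. The crystallin genes cryaa (0.50 ± 0.11, adjusted p = 0.0471, edgeR) and crygm2d1 (0.37 ± 0.08, adjusted p = 0.0390) rose, and crybb2 fell (-0.99 ± 0.22, adjusted p = 0.0424), with overlapping groups. Among 9 Mueller glia genes 2 rose in control larvae (9.58% of all genes), and 2 rose and 2 fell in EAE larvae, on HFHC diet. Of 7 pineal genes, where opsins and phototransduction genes are also expressed, 1 rose on HFHC diet in EAE larvae, asmt2 (0.62 ± 0.12, adjusted p = 0.00362, edgeR).

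Many photoreceptor genes of zebrafish follow the daily cycle, and clock genes differed between diets. Of 26 clock genes 16 rose and none fell on HFHC diet in control larvae, where 9.58% of all genes rose, and 12 rose and none fell in EAE larvae, where 8.19% did, with summed levels of 1647 to 1683 CPM in control ND, 1713 to 1787 CPM in EAE ND, 2087 to 2177 CPM in control HFHC and 2056 to 2114 CPM in EAE HFHC pools. The period gene per1a rose by 1.15 ± 0.09 in control larvae (log2, adjusted p = 7.92e-07, edgeR) and by 0.71 ± 0.09 in EAE larvae (adjusted p = 1.09e-04). The time of day at which each group was collected is not given in the sources used here, and the part of the clock in the diet differences of the opsins was not tested.

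Across the 12 pools, the 8 cone members followed each other, with Pearson's r of log2 CPM between 0.60 and 0.99 over 28 pairs. The value of r was 0.67 between rho and gnat1, 0.05 between rho and opn1sw2 and -0.46 between gnat1 and opn1sw2. Outside the members, the genes most like their mean were gnb3b (r = 0.97), gng3 (0.96), ckmt2a (0.96), gngt2b (0.96) and tuba2 (0.95). Most like rho were si:ch1073-155h21.2 (0.96), lrit1a (0.96), vldlr (0.95), tmem266 (0.95) and trappc9 (0.94). These pools share 4 groups, library scaling and the amount of eye RNA, and the values are descriptions.

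In the adult livers, which hold no photoreceptors, the members were close to absent. Over 30 livers with 8131371 to 12963071 counts each, opn1mw1 had 0 counts, which allows up to 0.00909 CPM over all livers by counting error alone, rho and opn1lw2 had 1 count each and opn1sw1 and gnat1 had 2 each. Low counts were found for opn1sw2 (106 counts over 26 livers), pde6c (104 counts over 26 livers), gnat2 (71 counts over 28 livers) and arr3a (49 counts over 19 livers). The 10 members summed to 0.334 to 3.71 CPM per liver (median 0.823 CPM), against at least 1813 CPM in every larval pool.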

How the data were processed

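Bulk RNA-Seq of 12 pools of whole larvae and of 30 adult livers (6 groups of 5) was used. For the larvae, the authors aligned single-end reads of poly(A)-selected mRNA to GRCz10 with STAR (2.3 and 2.4 stand in the submitters' processing notes) and deposited read counts per gene symbol without normalization, and TPM of the same genes. The program that made the larval counts, and whether strand was used, is not given in the sources used here. For the livers the authors deposited htseq-count (HTSeq 0.6.0) counts in 4 tables, with each control liver repeated unchanged in a second table. These tables also hold the authors' DESeq2 fold changes and p-values, which were not used, and 40 columns of counts divided by size factors, also not used. Gene positions and identifiers come from the liver tables by symbol.

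Every sample was grouped by its label. Larval counts were filtered with filterByExpr, scaled by TMM and fitted for all 12 samples with a mean per group in R 4.3.3 with edgeR 4.0.16, whose quasi-likelihood test was followed by Benjamini-Hochberg adjustment over 19657 genes (threshold 0.05). Replicate pools differed by more than sampling noise (chi-square per degree of freedom 4.46 to 8.15 over 12 pairs). SE is that of the log2 fold change, and log2 CPM used a prior count of 2. Opsin shares were tested by exact permutation over samples in Python 3.11.15. Scripts were tested on simulated data. Alternatives were RLE scaling, DESeq2 1.42.0, no filter, at least 10 counts in every sample, limma 3.58.1 on log2(TPM + 1) and log2(TPM + 0.1), only the 2 groups compared, the replicate block, and each pool left out in turn.

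The members and gene lists were chosen with earlier results of these data known. Named genes are all members, the other opn1mw genes, and from each list up to 4 genes per comparison with the smallest p among those with an adjusted p under 0.05 (some are given only in counts), and the 5 genes most correlated with the members' mean and with rho.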

Additional observations from a re-analysis of the deposited data

Results flagged for a closer look

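The summed level of the 10 members in the livers of the 1% EtOH ND group was 3.71 CPM (39 counts) in replicate 1 and 0.549 to 1.15 CPM in the other 4, a gap that Dixon's criterion at the 95% level marks. Chance marks about 1 group in 20, and 6 liver groups were examined.

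The exchanger gene slc24a2 belonged to the cone list, and which cells of the whole larvae expressed it was not examined. Its EtOH effect differed between diets: the interaction was -0.85 on the log2 scale (SE 0.14, adjusted p = 0.0225, edgeR). Its mean level was 21.9 CPM in control ND, 34.9 CPM in EAE ND, 28.7 CPM in control HFHC and 25.5 CPM in EAE HFHC larvae (n = 3 each). Every control pool was higher on HFHC diet than every control pool on ND, and in EAE larvae the order was the opposite.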

How the results depend on the processing

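Of 750 refits of a single member in a single comparison, 706 kept their side of the threshold, 37 lost a call and 7 gained one. The sign of the estimate changed in 24 of the 706 (14 results, none of them called, with log2 fold changes of at most 0.148 in size) and in none of the others. For EtOH on ND, 0 members were called in edgeR, 1 with DESeq2, 1 with no filter, 1 with only the 2 groups in the fit (pde6c each time) and 2 with the replicate block (opn1sw1, adjusted p = 0.0484, and pde6c, 0.0359). Leaving out a pool gave 0 to 0. For EtOH on HFHC diet 0 were called under every alternative. For diet in control larvae 5 became 0 with limma on log2(TPM + 1), 0 on log2(TPM + 0.1), and 0 to 4 with a pool left out. For diet in EAE larvae 7 became 6 and 5 with limma on the same scales and 5 to 7 with a pool left out. For the interaction 0 became 1 with DESeq2 (pde6c) and 0 to 1 with a pool left out. Opsin shares gave 5 classes for diet and 0 for EtOH under every alternative. For diet, leaving out a pool could not change this count, because the ranges of the 2 diets did not overlap.

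Same-numbered pools did not deviate together over all genes (correlation of deviations from group means -0.11 to 0.08 over 18 pairs, and 3 of 12 pools correlated best with their own number). This cannot exclude that the numbers pair the samples, and both control pools numbered 2 were the lowest of their group for every member. The replicate block left 5 and 7 members called for diet in control and EAE larvae and 0 for EtOH on HFHC diet and the interaction. For EtOH on ND it called 2 members, and the count over all genes went from 257 to 368.

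Counts over all genes depended on the tool. For EtOH on ND 257 genes were called in edgeR, 557 with DESeq2, 414 with no filter, 145 with only the 2 groups and 0 with limma. For EtOH on HFHC diet the counts were 46, 131, 100 and 92, and 22 with the replicate block. For the interaction they were 50, 263 with DESeq2 and 193 with no filter. Without control ND replicate 2, EAE ND replicate 1 or EAE ND replicate 3, EtOH on ND left 7, 28 and 32 genes. By depth the member opn1lw1, with 65 to 264 reads per pool, was the least precise.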
